A study of Mus musculus with 12 samples.

Results

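Olig1, Olig2 and 5 further genes of the oligodendrocyte lineage were followed across 12 RNA libraries of primary mouse motoneuron cultures. The 7 genes are Olig1, Olig2, Nkx2-2, Sox10, Sox8, Pdgfra and Cspg4, out of 39174 gene identifiers in the deposited tables. They were found by gene symbol, and the set was chosen on measured values of these libraries, since genotype differences of Olig1 and Olig2 were already known. Their differences between genotypes are therefore given as a description, with no test. The effect of the compound, and whether it differed between genotypes, was tested. Of the 7 genes, 5 had at least 1 FPKM (fragments per kilobase of transcript, scaled to the number of mapped fragments) in at least 3 libraries and were tested with 15114 genes in all. Sox10 and Pdgfra lay below that level and are described by their values only.

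The cultures came from mice of strain FVB. One genotype was Smn-/-;SMN2, which lacks the mouse Smn gene and carries SMN2, the human paralogue, and models spinal muscular atrophy (SMA). The other was Smn+/+;SMN2, named control here, so both genotypes carried SMN2. Each genotype was cultured without treatment or with 0.5 µM R-Roscovitine, a purine inhibitor of cyclin-dependent kinases, with 3 libraries in each of the 4 groups. The labels give no age and do not say which libraries came from separate embryos or cultures, so a p-value reflects the spread between these libraries, which may be technical.

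In the ventral neural tube, sonic hedgehog signalling sets up a progenitor domain that expresses Olig2 and gives rise first to motoneurons and later to oligodendrocyte precursors. Olig1 and Olig2 are basic helix-loop-helix (bHLH) transcription factors that bind the E-box, a short DNA word. Nkx2-2 is a homeodomain factor of the neighbouring ventral domain that later joins them in precursors. Sox8 and Sox10 are group E SOX factors, and Sox10 drives myelin genes as precursors differentiate. Pdgfra, the receptor for PDGF-A, and Cspg4, the NG2 proteoglycan, are the surface proteins by which precursors are usually recognised. Cspg4 is also made by pericytes, and Pdgfra by fibroblasts.

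The sequence upstream of a start site is shown for Olig2, Nkx2-2 and Sox8, 3 of the 4 genes whose FPKM was higher in all SMA than in all control libraries. They are RefSeq promoter windows in build GRCm38.p6, written 5′ to 3′ on the gene's strand, without bases in annotated exons. Capitals mark E-boxes, CANNTG, a word whose reverse complement is again CANNTG and that was allowed to overlap other words. The stretches are chr16:91225300-91225456 on the plus strand for Olig2, chr2:147186456-147186652 on the minus strand for Nkx2-2, which lies between the ends of the gene's locus in the tables, and chr17:25570687-25570936 on the minus strand for Sox8.
Olig2: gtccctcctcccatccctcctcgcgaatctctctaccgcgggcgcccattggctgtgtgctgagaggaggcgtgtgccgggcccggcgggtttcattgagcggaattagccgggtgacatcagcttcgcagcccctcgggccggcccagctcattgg
Nkx2-2: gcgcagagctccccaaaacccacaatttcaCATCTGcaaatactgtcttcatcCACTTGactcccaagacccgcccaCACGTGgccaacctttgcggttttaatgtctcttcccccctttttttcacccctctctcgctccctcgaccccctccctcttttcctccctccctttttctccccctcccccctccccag
Sox8: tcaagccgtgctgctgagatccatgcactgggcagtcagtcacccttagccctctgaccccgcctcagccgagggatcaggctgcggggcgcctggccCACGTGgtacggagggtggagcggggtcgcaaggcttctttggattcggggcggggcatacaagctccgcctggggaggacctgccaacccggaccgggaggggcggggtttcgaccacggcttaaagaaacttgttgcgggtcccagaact
The 250 bases before the RefSeq start held 0 E-boxes in Olig2, 3 in Nkx2-2 and 1 in Sox8. Pdgfra held 1 and Cspg4 held 0. Of 27025 such windows in the RefSeq table, 66.0% held at least 1, with a median of 1 per window. The E-box word CACGTG was in the windows of Nkx2-2 and Sox8 and in 6.05% of all windows. The GLI word GGGTGGTC, searched on both strands, was in none of the 5 windows and in 0.681% of all windows. The SOX word ACAANG, searched on both strands, was found once each in Olig2 and Pdgfra and in 36.6% of all windows. GC content was 66.8% for Olig2, 56.4% for Nkx2-2 and 65.6% for Sox8 against a median of 52.0%. These matches describe letters only.

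Among these libraries, SMA library 2 stood apart. It was the lowest SMA library in both treatments for 6 of the 7 genes and the highest for Cspg4. Some results are also given without it. It was singled out on these same values, and leaving out the lowest SMA library widens a difference. Calls made without it are therefore a description and lend no support. Smn1, the gene deleted in the model, had 30.9 to 51.2 FPKM in the 6 control libraries and 5.04 to 8.58 FPKM in the 6 SMA libraries. By limma it fell by 2.28 ± 0.19 (SE) on the log2 scale without and by 2.49 ± 0.19 with the compound. Genes with at least 1 FPKM numbered 14464 to 14582 per library. The motoneuron label was not borne out by the defining transcripts Mnx1, Chat and Isl1. Mnx1, a motoneuron homeodomain factor, was listed at 0 in all 12 libraries. Chat, which makes acetylcholine, was listed at 0 in 9 libraries and had at most 0.0605 FPKM. Isl1, another motoneuron homeodomain factor, had 0.0593 to 0.845 FPKM. In a list of motoneuron genes, 7 of the 11 matched stayed below 1 FPKM in every library. Others of that list were higher, with 4.13 to 10.5 FPKM for Gfra1, 3.53 to 18.1 for Chodl and 1.38 to 3.35 for Ret.

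Olig1 and Olig2 lie next to each other on chromosome 16. Olig1, a single-exon gene (ENSMUSG00000046160, GRCm38, chromosome 16, 91269769 to 91271939, plus strand), had the highest level of the 7 genes in most libraries. Untreated control libraries 1, 2 and 3 had 8.06, 3.97 and 5.34 FPKM of Olig1, and untreated SMA libraries 49.1, 13.5 and 31.8 FPKM. Under R-Roscovitine Olig1 had 2.40, 5.36 and 5.01 FPKM in control libraries, and the SMA libraries had 59.8, 9.15 and 37.3 FPKM. Every SMA library lay above every control library, and SMA library 2 was the lowest SMA library in both treatments. The means were 31.4 ± 17.8 against 5.79 ± 2.09 FPKM untreated (SD, n = 3), a ratio of 5.43, and 35.4 ± 25.4 against 4.26 ± 1.62 FPKM with the compound, a ratio of 8.31. SMA library 2 alone was at 2.33 times the control mean untreated and at 2.15 times with the compound. Without it the ratios were 6.98 and 11.4. On the log2(FPKM + 1) scale the difference was 2.16 ± 0.58 (SE) untreated and 2.52 ± 0.58 with the compound.

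Olig2 (ENSMUSG00000039830, chromosome 16, 91225550 to 91228677, plus strand, 2 exons) showed a similar pattern at a lower level. Its untreated values were 2.30, 1.16 and 1.54 FPKM in control libraries, and the SMA libraries had 12.6, 4.06 and 9.05 FPKM. With R-Roscovitine they were 1.09, 1.25 and 2.66 FPKM in control libraries, and the SMA libraries had 14.3, 2.98 and 8.09 FPKM. The lowest SMA library, treated library 2, exceeded the highest control library by little. The mean was 8.56 ± 4.27 against 1.67 ± 0.581 FPKM untreated (SD, n = 3) and 8.45 ± 5.66 against 1.67 ± 0.861 FPKM treated. These are ratios of 5.13 and 5.07, and 6.48 and 6.71 without SMA library 2, which alone gave 2.44 and 1.79. The log2 differences were 1.78 ± 0.45 and 1.68 ± 0.45 (SE). In bulk RNA a larger share of cells that express a gene and more of its RNA per cell cannot be told apart, which holds for every level given here.

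**Figure D1:**
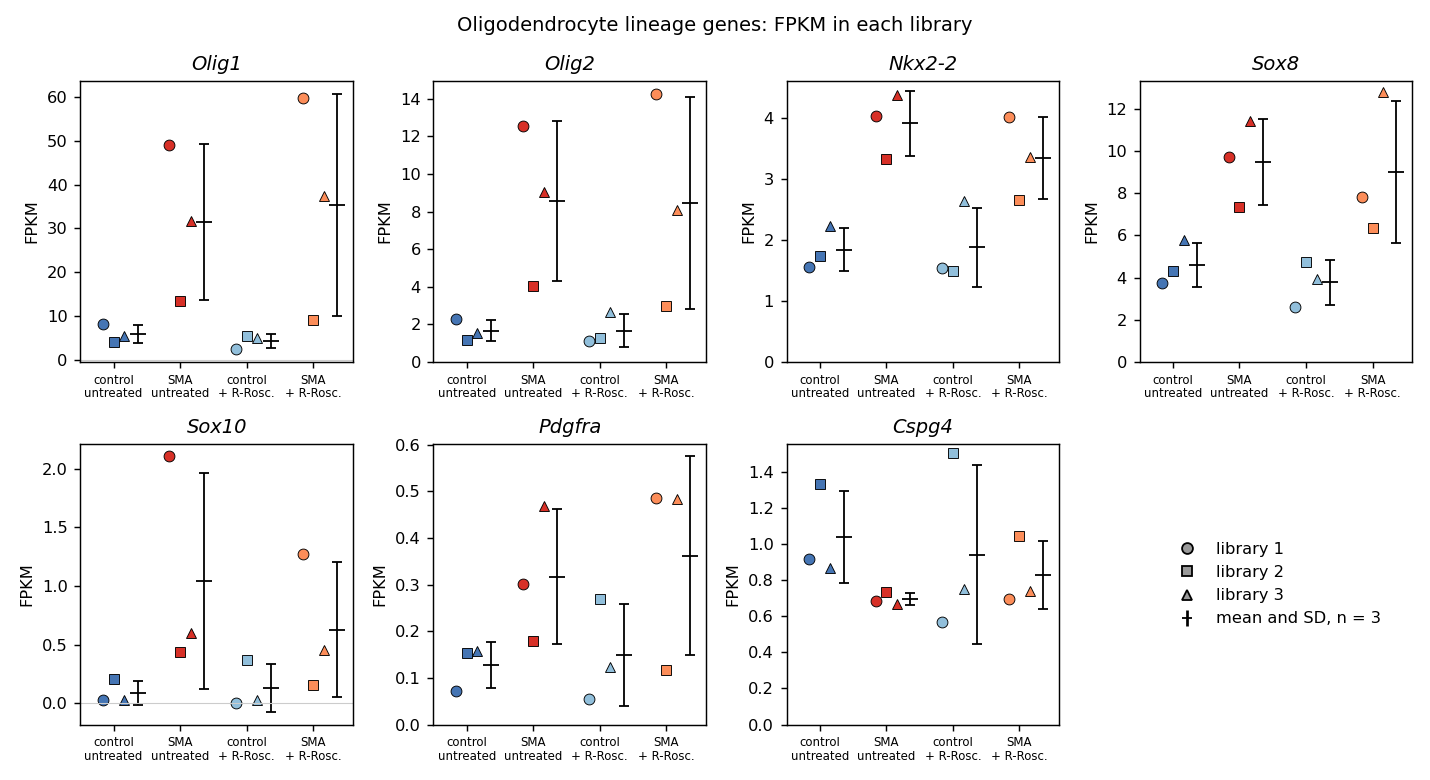
FPKM of each of the 7 genes in each library (y axis, linear, a separate scale per gene) by group (x axis); symbols mark libraries 1, 2 and 3, and bars give mean and SD of 3 libraries. Olig1, Olig2, Nkx2-2 and Sox8 are higher in every SMA than in every control library, and SMA library 2 (square) is the lowest SMA library for each of them.

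The Olig1 to Olig2 ratio was near the same value across untreated libraries although both levels varied. It was 3.51, 3.42 and 3.47 in untreated control and 3.91, 3.32 and 3.51 in untreated SMA libraries. With R-Roscovitine it was 2.2, 4.30 and 1.89 in control and 4.19, 3.07 and 4.62 in SMA libraries. The ratio was thus more spread with the compound, most in control libraries. Olig2 had 1.09 to 2.66 FPKM there and 1.16 to 2.30 FPKM in untreated control libraries, where the ratio was least spread. The cause was not tested. After the 4 group means were subtracted, log2 values of the pair had a Pearson correlation of 0.95 over the 12 libraries. Libraries of the same number and genotype are not independent in this, and within each library both genes share its depth and scaling.

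**Figure D2:**
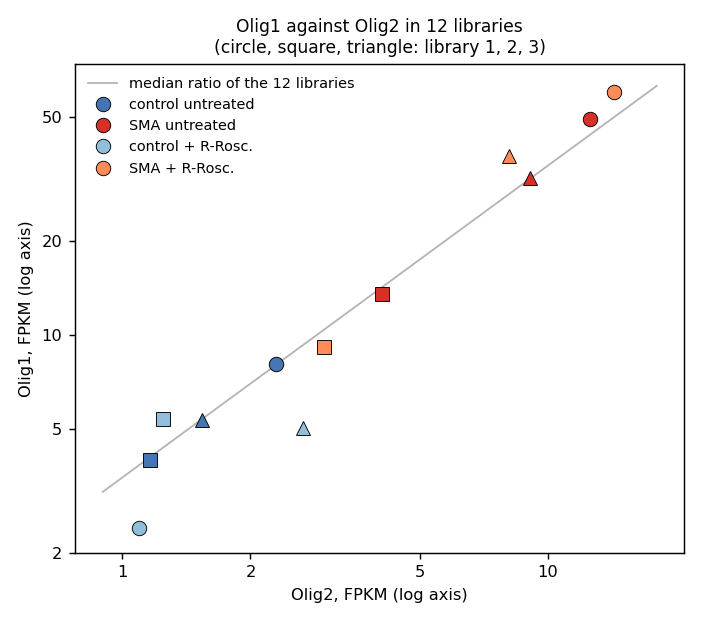
Olig1 FPKM (y axis, log) against Olig2 FPKM (x axis, log) in the 12 libraries; colour gives the group, symbols give the library number, and the line is the median ratio. Untreated libraries lie along the line from control to SMA, and treated control libraries 1 and 3 lie farthest below it, with ratios of 2.2 and 1.89.

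Nkx2-2 (ENSMUSG00000027434, chromosome 2, 147177546 to 147194243, minus strand) differed by less but with less spread. Untreated libraries had 1.55, 1.74 and 2.24 FPKM in control cultures, and the SMA cultures had 4.04, 3.33 and 4.38 FPKM. With R-Roscovitine the values were 1.54, 1.48 and 2.63 FPKM in control cultures, and the SMA cultures had 4.02, 2.66 and 3.36 FPKM. Every SMA library was above every control library, with treated SMA library 2 and treated control library 3 nearly level. The ratio of means was 2.12 untreated and 1.77 with the compound, and the log2 differences were 0.82 ± 0.19 and 0.61 ± 0.19 (SE). An antisense gene overlapping this locus, 6430503K07Rik, had at most 0.646 FPKM, and without a stated strand setting its reads cannot be told apart from those of Nkx2-2.

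Sox8 (ENSMUSG00000024176, chromosome 17, 25565892 to 25570686, minus strand) was the higher of the 2 group E SOX genes. It had 3.73, 4.30 and 5.76 FPKM in untreated control libraries and 9.71, 7.32 and 11.4 FPKM in the untreated SMA libraries. With R-Roscovitine Sox8 had 2.61, 4.73 and 3.95 FPKM in control libraries, and the SMA libraries had 7.84, 6.36 and 12.8 FPKM. The genotypes did not overlap, and SMA library 3 was the highest in both treatments, unlike for the Olig genes. The ratios of means were 2.06 and 2.39, and the log2 differences 0.94 ± 0.25 and 1.06 ± 0.25 (SE). The antisense gene 2810468N07Rik overlaps Sox8 and had 0.919 to 3.88 FPKM, a level at which unstranded counting could add to Sox8.

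Sox10 (ENSMUSG00000033006, chromosome 15, 79154913 to 79164490, minus strand) was near the floor in control cultures. Untreated control libraries had 0.0267, 0.206 and 0.0272 FPKM, and untreated SMA libraries 2.10, 0.435 and 0.599 FPKM. Under R-Roscovitine Sox10 was listed at 0 in control library 1 and had 0.369 and 0.0316 FPKM in libraries 2 and 3, against 1.27, 0.158 and 0.453 FPKM in SMA libraries. SMA libraries were above control libraries only without the compound, and SMA library 1 was the highest in both treatments. In the authors' intervals, untreated SMA library 1 ran from 1.75 to 2.45 FPKM and untreated control library 1 from 0 to 0.0644 FPKM.

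The genes for surface proteins were low, and Pdgfra and Cspg4 differed from each other. Pdgfra (ENSMUSG00000029231, chromosome 5, 75152291 to 75198204, plus strand) stayed under 0.5 FPKM everywhere, with 0.0717, 0.154 and 0.157 FPKM in untreated control libraries and 0.302, 0.180 and 0.469 FPKM in the untreated SMA libraries. With R-Roscovitine Pdgfra had 0.0556, 0.269 and 0.124 FPKM in control libraries, and the SMA libraries had 0.487, 0.117 and 0.485 FPKM, so the genotypes overlapped through SMA library 2. Its ratios of means were 2.48 and 2.42, and SMA library 2 was its lowest SMA library in both treatments, as for Olig1. Cspg4 (ENSMUSG00000032911, chromosome 9, 56865104 to 56899870, plus strand) had 0.917, 1.33 and 0.865 FPKM in untreated control libraries and 0.684, 0.732 and 0.666 FPKM in the untreated SMA libraries. Here SMA libraries were the lower ones. With the compound Cspg4 overlapped, at 0.566, 1.5 and 0.751 FPKM in control libraries, and the SMA libraries had 0.697, 1.04 and 0.738 FPKM. Its log2 differences were -0.24 ± 0.19 and -0.06 ± 0.19 (SE).

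In both treatments, SMA libraries were above control libraries without overlap for 4 of the 7 genes, Olig1, Olig2, Nkx2-2 and Sox8. Over all 15114 genes tested, 448 (2.96%) were above and 342 (2.26%) below in this way. Since the genes were chosen on the genotype contrast, nothing is read from the count. By limma, with Benjamini-Hochberg adjustment over all genes tested, the genotype contrasts called 1 gene each, 0.00662% of those tested untreated and 0.00662% with the compound, and this gene was Smn1. At an unadjusted p under 0.05 they gave 2119 and 1946 genes. Without treated SMA library 2 the contrasts called 6 and 205 genes. Without treated SMA library 1, or without treated SMA library 3, they called 1 gene each.

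The levels, which FPKM corrects for gene length, can be ordered by their means. In untreated control cultures the means ran from Olig1 at 5.79 ± 2.09 and Sox8 at 4.60 ± 1.05 FPKM (SD, n = 3), which overlapped, through Nkx2-2 at 1.84 ± 0.355 and Olig2 at 1.67 ± 0.581 FPKM, which also overlapped, to Cspg4 at 1.04 ± 0.255 FPKM, which overlapped Olig2. Pdgfra and Sox10 came last at 0.128 ± 0.0486 and 0.0865 ± 0.103 FPKM and overlapped. In untreated SMA cultures Olig1 led at 31.4 ± 17.8 FPKM, followed by Sox8 at 9.48 ± 2.05 and Olig2 at 8.56 ± 4.27 FPKM, which overlapped, and Nkx2-2 at 3.91 ± 0.535 FPKM, which overlapped Olig2. Sox10 at 1.05 ± 0.920, Cspg4 at 0.694 ± 0.0343 and Pdgfra at 0.317 ± 0.145 FPKM followed. Of these last genes Sox10 overlapped both Cspg4 and Pdgfra, while Cspg4 was above Pdgfra in each library. Olig1 and Olig2 together made up 39.9 to 62.2% of the summed FPKM of the 7 genes in untreated control and 59.4 to 78.5% in untreated SMA libraries. With the compound these shares were 42.3 to 50.6% and 54.0 to 83.8%.

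R-Roscovitine was compared with no treatment to ask whether the compound moved these genes in either genotype, a contrast that was not used to choose them. None of the 5 tested genes passed. In control cultures the log2 difference, treated minus untreated, was -0.35 ± 0.58 (SE) for Olig1, -0.01 ± 0.45 for Olig2, 0.02 ± 0.19 for Nkx2-2, -0.22 ± 0.25 for Sox8 and -0.08 ± 0.19 for Cspg4 (limma, adjusted p = 0.9997 for each). In SMA cultures Olig1 was close to 0, with a 95% interval of the difference from -1.25 to 1.24, and Olig2 differed by -0.11 ± 0.45, Nkx2-2 by -0.18 ± 0.19, Sox8 by -0.10 ± 0.25 and Cspg4 by 0.10 ± 0.19 (limma, adjusted p = 0.999 for each of the 5). Over all genes, limma called 0 of 15114 in control cultures (0%) and 0 in SMA cultures (0%), with 205 and 377 at an unadjusted p under 0.05.

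The intervals show how small a change could have been seen. For Olig1 in control cultures the 95% interval of the log2 difference ran from -1.60 to 0.89, and for Olig2 from -0.98 to 0.96 in control and -1.07 to 0.86 in SMA cultures. Nkx2-2 was held more tightly, between -0.39 and 0.43 in control and -0.59 and 0.23 in SMA cultures. Sox8 lay between -0.76 and 0.33 in control and -0.65 and 0.44 in SMA cultures. The interval was thus widest for Olig1, whose SMA libraries were also the most spread.

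Treated and untreated libraries of the same genotype and number resembled each other across all genes, so each of the 6 pairs gives its own difference. Olig1 differed, treated minus untreated, by -1.36, 0.36 and -0.06 on the log2 scale in control pairs 1, 2 and 3 and by 0.28, -0.51 and 0.22 in SMA pairs. It was higher with the compound in 3 of 6 pairs, and Olig2 likewise in 3 of 6. Nkx2-2 was lower in all 3 SMA pairs, by -0.01, -0.24 and -0.31, and in 1 of 3 control pairs. Sox10 was also lower in all 3 SMA pairs, by -0.46, -0.30 and -0.14, and Cspg4 higher in all 3, by 0.01, 0.24 and 0.06. In an exact two-sided sign-flip permutation test over the 6 pairs, added after the data were seen, the 7 genes gave unadjusted p from 0.156 for Sox8 to 0.844 for Cspg4, where the smallest p possible is 0.0312.

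**Figure D3:**
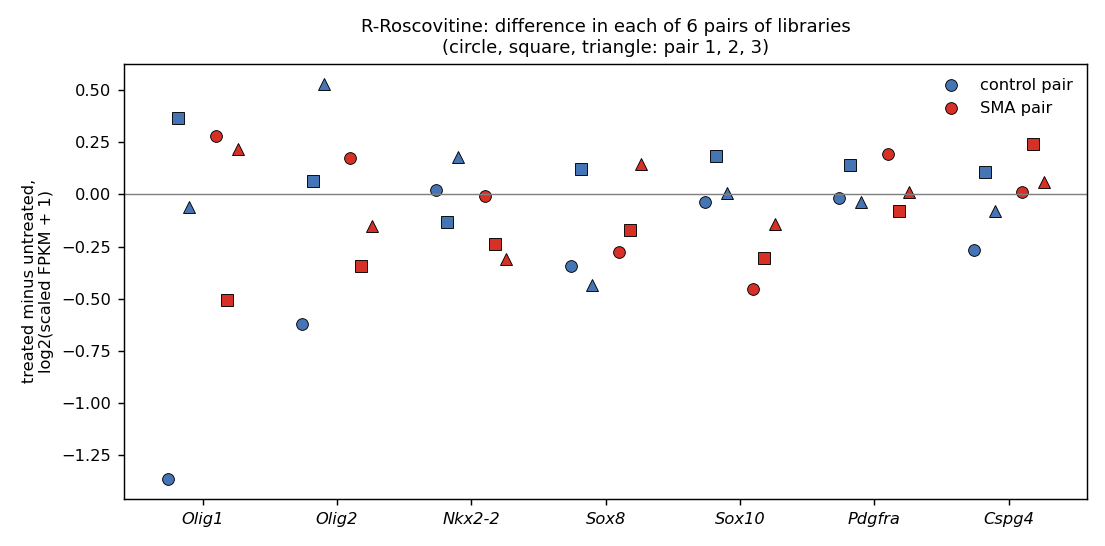
Difference between the treated and the untreated library of each pair, in log2(scaled FPKM + 1) (y axis), for the 7 genes (x axis); blue points are control pairs, red points SMA pairs, and symbols give the library number. Olig1 and Olig2 pairs lie on both sides of 0, and the SMA pairs of Nkx2-2 and Sox10 lie below it.

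Whether the response to R-Roscovitine depended on genotype was tested as an interaction, SMA response minus control response. The estimates were 0.35 ± 0.82 (SE) for Olig1, -0.10 ± 0.63 for Olig2, -0.21 ± 0.27 for Nkx2-2, 0.12 ± 0.36 for Sox8 and 0.18 ± 0.27 for Cspg4 (limma, adjusted p = 1 for each), so none passed. The 95% interval was -1.41 to 2.11 for Olig1 and -1.47 to 1.27 for Olig2. Limma called 0 of 15114 interactions (0%), with 310 at an unadjusted p under 0.05.

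Further genes of oligodendrocyte precursors were examined in a list of 28, of which 20 were tested and 0 were called in any comparison. Untreated, 15 were higher in SMA and 5 lower (median on the log2 scale 0.29), and with the compound 17 were higher and 3 lower (median 0.30). Of the 28, 27 matched a symbol in the tables, and 7 of them stayed below 1 FPKM in every library. The medians over all genes tested were -0.01 and -0.02. Ednrb, the endothelin B receptor, had 27.8, 18.3 and 46.4 FPKM in untreated control libraries and 118, 78.7 and 135 FPKM in the untreated SMA libraries, and it did not overlap between genotypes in either treatment. Nfia, a gliogenic factor, had 33.9, 36.8 and 37.3 FPKM against 51.6, 53.9 and 80.6 FPKM and did not overlap either. Nfib, its relative, had 68.6 to 99.5 against 90.6 to 108 FPKM. Ednrb, Nfia and Nfib had the highest levels of the list. Of the 20 tested genes, Ednrb and Nfia alone were above control without overlap in both treatments, beside 2.96% of all genes tested. Gpr17, which marks committed precursors, reached at most 0.475 FPKM, in untreated SMA library 1. Without treated SMA library 2, limma called 6 of the 20 genes higher in treated SMA cultures, among 205 called of 15114 tested.

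The defining genes of myelinating oligodendrocytes were low. Of 28 listed, 14 stayed below 1 FPKM in every library, 12 were tested and 0 were called. Mag, a myelin adhesion protein, had at most 0.144 FPKM and was listed at 0 in 8 libraries. Mog, a myelin surface protein, had 0.328 to 1.09 FPKM, and Myrf, the factor that switches on myelin genes, 0.0228 to 0.312 FPKM. Mbp, a main myelin protein, ran against the Olig genes, with 5.31, 4.10 and 2.57 FPKM in untreated control libraries and 2.60, 1.89 and 2.41 FPKM in the untreated SMA libraries. Cnp, a myelin enzyme, had 4.56, 3.89 and 2.53 FPKM against 7.71, 4.56 and 7.08 FPKM. Untreated SMA library 1 held the highest Sox10, Gpr17 and Erbb3, the last a receptor shared with Schwann cells, at 0.837 FPKM. The 12 tested genes had a median log2 difference of 0.15 untreated, 10 higher and 2 lower, and 0.11 with the compound, 7 higher and 5 lower. Without treated SMA library 2, limma called 1 of them, Nkx6-2, which also patterns ventral progenitors, higher in treated SMA cultures. Over all 15114 genes tested, 205 were called in that contrast. The genes of the list with the highest levels, Qk, Sirt2 and Tcf7l2, are expressed beyond oligodendrocytes, and Qk, an RNA-binding protein, had 54.5, 59.9 and 86.7 FPKM against 128, 98.9 and 127 FPKM.

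Of 28 genes of ventral patterning and sonic hedgehog signalling, which act upstream of Olig2, 20 were tested and 0 were called. Untreated, 13 were higher in SMA and 7 lower (median on the log2 scale 0.12), and with the compound 17 were higher and 3 lower (median 0.28). Shh, the ligand, had 6.77, 13.2 and 16.1 FPKM in untreated control libraries and 17.6, 19.2 and 16.2 FPKM in the untreated SMA libraries. Ptch1, its receptor and a target of the pathway, had 17.8, 12.5 and 16 against 28.6, 28.4 and 50.8 FPKM. Gli1, a transcription factor and target of the pathway, had 1.44, 1.46 and 1.43 against 2.90, 3.63 and 4.65 FPKM. Shh, Ptch1 and Gli1 were each higher in every SMA than in every control library of the same treatment. In both treatments, 4 of the 20 tested genes were above and 1 below control without overlap, beside 2.96% and 2.26% of all genes tested. Ptch1 differed by 1.17 ± 0.29 (SE) untreated and 1.30 ± 0.29 with the compound on the log2 scale (limma, not called). Nkx6-1, a homeodomain factor that permits Olig2 expression, had 2.09, 3.92 and 4.24 FPKM against 3.6, 5.43 and 5.62 FPKM, which overlapped. Pax6, which marks progenitors dorsal to that domain, had 38.9 to 50.7 against 39.3 to 54.6 FPKM, which overlapped too. Without treated SMA library 2, limma called Ptch1 and Gli1 higher in treated SMA cultures, by 1.58 and 1.11 on the log2 scale. They were among 205 genes called of 15114 tested.

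Among PDGF ligands and receptors other than Pdgfra, 5 of 6 were tested and 0 were called. Pdgfa, the ligand of Pdgfra, was lower in SMA, with 41.1, 42.0 and 39.2 FPKM in untreated control libraries and 27.4, 34.9 and 27.1 FPKM in the untreated SMA libraries. Its log2 difference was -0.41 ± 0.14 (SE) untreated and -0.18 ± 0.14 with the compound, where the genotypes overlapped.

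Astroglia and progenitor markers differed in the same direction as the Olig genes, and their part in these results was not tested. Of 12 astroglia genes, all tested, 11 were higher in SMA in each treatment, with median log2 differences of 1.04 and 1.08, and 5 were above control without overlap in both treatments, beside 2.96% of all genes tested. Their summed level was 138 to 159 FPKM in untreated control, 210 to 367 in untreated SMA, 116 to 155 in treated control and 173 to 384 FPKM in treated SMA libraries. Aldoc, a glycolytic enzyme of astrocytes, had 28.8, 6.64 and 27.6 FPKM in untreated SMA and 8.19, 9.95 and 5.77 FPKM in untreated control libraries, with SMA library 2 again low. Of 18 radial glia and progenitor genes 17 were tested, of which 13 were higher and 4 lower in each treatment, with medians of 0.55 and 0.70. Fabp7, a fatty acid carrier of radial glia, had 202, 165 and 240 FPKM in untreated control libraries and 854, 324 and 416 FPKM in the untreated SMA libraries. Sox9, a glial fate factor, had 18, 13.5 and 16.7 against 18.3, 21.5 and 30.9 FPKM. No gene of either list was called. Without treated SMA library 2, limma called 4 of 12 astroglia and 1 of 17 progenitor genes higher in treated SMA cultures. This was beside 205 genes called of all 15114 tested. Untreated, the same setting called 2 astroglia genes higher, beside 6 of 15114.

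Markers of cell types that share Sox10, Pdgfra or Cspg4 with this lineage, and of motoneurons, were also measured. Of 12 Schwann cell and neural crest genes tested, of 17 listed, 4 were higher and 8 lower in each treatment, with medians of -0.20 and -0.15. Their summed level was 540 to 652 FPKM in untreated control and 662 to 1149 FPKM in untreated SMA libraries, and 566 to 590 and 571 to 1005 FPKM with the compound. Most of this sum is Fabp7, which the radial glia list also holds, Gap43 and Pmp22. In untreated control libraries they had 165 to 240, 136 to 236 and 162 to 173 FPKM. In untreated SMA libraries they had 324 to 854, 110 to 135 and 118 to 215 FPKM. Foxd3, a neural crest factor, had 0.202 to 0.656 FPKM. Of 10 fibroblast genes tested, of 14 listed, 8 were lower untreated and 7 with the compound, with medians of -0.50 and -0.51. The fibroblast sums were 191 to 384 FPKM in untreated control, 138 to 219 in untreated SMA, 170 to 348 in treated control and 135 to 240 FPKM in treated SMA libraries, and Col1a1, a fibrillar collagen chain, had 63.1 FPKM in untreated control library 2 against 7.10 to 18.1 FPKM in untreated SMA libraries. Cspg4 was likewise highest in control library 2. Other fibroblast genes were highest in SMA library 1, which also held the highest Olig1, Olig2 and Sox10. Postn, a matrix protein, had 14.9 FPKM there untreated against 0.203 to 2.09 FPKM in the other 5 untreated libraries, and Dcn, a collagen-binding proteoglycan, 5.27 against 1.48 to 2.79 FPKM. Lum, a related proteoglycan, had 2.01 FPKM there untreated and at most 0.0847 FPKM in the others, and Col3a1, a fibrillar collagen chain, 2.93 and at most 0.489 FPKM. The part of these cells in the Olig values was not tested. Of 5 pericyte and mural genes tested, of 12 listed, 4 were higher in each treatment, with medians of 0.16 and 0.20. Vtn and Notch3, 2 of the 5, were above control without overlap in both treatments, beside 2.96% of all genes tested. Of the 12 listed, 5 stayed below 1 FPKM in every library. Vtn, vitronectin, differed by 1.37 and 1.75 on the log2 scale and Notch3, a receptor of mural cells, by 0.68 and 0.78. Tagln differed by 0.16 and 0.20 and Mcam by -0.07 and -0.10. Acta2, smooth muscle actin, had 2053 to 2625 FPKM in untreated SMA against 2225 to 2316 FPKM in untreated control libraries. Of 4 motoneuron genes tested, of 12 listed and 11 matched, 4 were lower untreated. With the compound 3 were lower and 1 higher, and the medians were -0.17 and -0.09. Chodl, a lectin of fast motoneurons, differed most untreated, with 7.32, 18.1 and 9.82 against 3.87, 6.23 and 3.6 FPKM. Its log2 difference was -1.10 ± 0.34 (SE) untreated, against -0.31 ± 0.26 for Ret and -0.03 ± 0.26 for Gfra1. No gene of these lists was called, and without treated SMA library 2 limma called 1, the mural gene Vtn, higher in treated SMA cultures. It was among 205 genes called of 15114 tested.

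**Figure D4:**
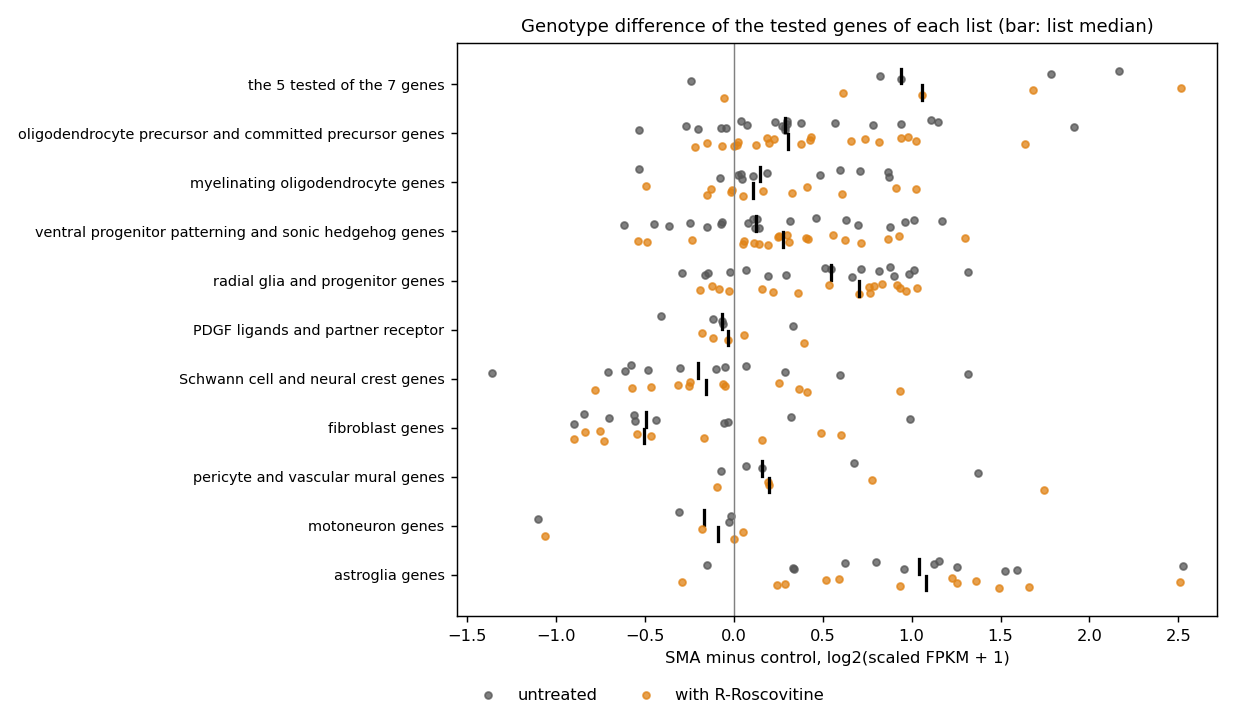
SMA minus control difference in log2(scaled FPKM + 1) (x axis) of each tested gene, by gene list (y axis), untreated in grey and with R-Roscovitine in orange; black bars are list medians. Astroglia medians are 1.04 and 1.08, precursor medians 0.29 and 0.30 and myelinating medians 0.15 and 0.11, while fibroblast medians are -0.50 and -0.51.

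Other genes were ranked by how closely their log2 values followed Olig2 over the 12 libraries, as Pearson's r with no test. Apart from Olig1, the 8 highest were Mcee at 0.976, A2m at 0.971, Slc25a18 at 0.968, Scarb2 at 0.967, Lrrc46, Mgst1 and Btbd17 at 0.966 each and Slc15a2 at 0.965. This measure includes the genotype difference and reaches high values among many genes. Slc15a2, a peptide transporter, had 19.3, 10.5 and 18.6 FPKM in untreated SMA and 5.28, 3.32 and 3.78 FPKM in untreated control libraries, with library 2 again the lowest SMA library. After the 4 group means were subtracted, Zfyve21 at 0.964, Timp4 at 0.962, Fam58b at 0.951, Hist1h2bh at 0.950, Slc15a2 at 0.944, Gm11531 at 0.943, A2m at 0.939 and Mcee at 0.932 came highest, so 3 genes stood in both rankings. Among the 7 genes, deviations of Olig2 had r of 0.74 with Nkx2-2, 0.70 with Sox10, 0.64 with Pdgfra, 0.41 with Sox8 and -0.35 with Cspg4. Sox8 was closest to Pdgfra, at 0.82.

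Of 16 genes within 250 kb of Olig1 or Olig2 in the tables, 8 were tested and 0 were called. Their genotype differences ran from -0.68 to 0.30 on the log2 scale untreated. Ifnar1 and Ifnar2, chains of the type I interferon receptor, differed by 0.09 ± 0.14 and 0.04 ± 0.15 (SE) on the log2 scale untreated, and by -0.01 ± 0.14 and 0.06 ± 0.15 with the compound. Il10rb, an interleukin receptor chain, differed by -0.11 ± 0.24 and -0.04 ± 0.24. Synj1, a phosphatase of synaptic vesicles, was lower in SMA, by -0.68 ± 0.16 and -0.46 ± 0.16, with 51.4, 41.2 and 33.9 FPKM in untreated control libraries and 21.4, 27.1 and 26.0 FPKM in the untreated SMA libraries. H3f3a-ps2 is a pseudogene whose reads may be shared with its parent gene. The other 4 tested neighbours, Paxbp1, 4932438H23Rik, H3f3a-ps2 and Gm7856, lay between 0.07 and 0.30 untreated and between -0.16 and 0.44 with the compound.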

How the data were processed

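RNA of 12 primary mouse motoneuron culture libraries (Nucleospin RNA kit, Lexogen mRNA-Seq Library Prep Kit V2, per the labels' protocols) was measured by sequencing. Per the submitters' processing notes, reads were checked with FastQC 0.10.1 and trimmed with Trim Galore 0.4.0, and FPKM values on build GRCm38 came from Cufflinks 2.2.1. For aligner settings, strand setting and annotation release nothing is given in the sources used here. The deposited tables hold FPKM per gene with its interval, 1 library per table.

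The tables give no read counts. The smallest FPKM step per gene length gave 19.5 to 28.7 M reads per library, but only 35.9 to 39.2% of low values were whole multiples of it (within 0.01 reads), so no count model was used. The authors' intervals had a median half-width of 9.04 to 11.1% of the value. Values of gene identifiers on several lines were summed. Levels are FPKM as deposited, and differences use log2(FPKM + 1) after median-of-ratios scaling. Genes with at least 1 FPKM in at least 3 of 12 libraries were tested with limma 3.58.1 (R 4.3.3, trend, two-sided, 4 group means), and a gene was called at a Benjamini-Hochberg adjusted p under 0.05 over all 15114 genes tested. Fold changes on this scale understate the change of low genes. The procedure was tested on simulated data.

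The 7 genes and all gene lists were chosen with earlier results of these data known. Genes named beside the 7 were the 3 highest of each list, a fixed set of lineage, patterning and motoneuron genes, the 8 closest to Olig2 by each correlation and the neighbours within 250 kb. Any gene named outside this rule (Foxd3, Erbb3, Postn, Dcn, Lum, Col3a1, Vtn, Notch3, Tmem100, Ptprz1 and Sox5) was chosen after its values were seen. Promoter windows came from a RefSeq table (GRCm38.p6) that matched 5 of the 7 genes, not Olig1 and Sox10. Some genes of the lists are not reported here by name.

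The labels number libraries 1 to 3 in each group. After group means were subtracted, treated and untreated libraries of the same genotype and number correlated over all tested genes (0.222, 0.574 and 0.312 in control, 0.546, 0.504 and 0.417 in SMA cultures), so they were taken as pairs. Alternatives were another pseudocount, filter, scaling, library weights, blocks on the pair or the replicate number and leaving out each library.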

Additional observations from a re-analysis of the deposited data

How the results depend on the processing

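Within each genotype, a block on the pairing of treated and untreated libraries changed no call: limma called 0 genes for R-Roscovitine in control cultures, 0 in SMA cultures and 0 interactions. After group means were subtracted, same-numbered libraries across genotypes correlated at -0.054, 0.145 and -0.018 untreated and at 0.246, 0.045 and 0.280 with the compound. The treated values for numbers 1 and 3 were above the 0.222 of control pair 1. Whether same-numbered libraries of different genotype share a source was not tested. A block on the replicate number across genotypes called 301 genes in the untreated and 220 in the treated genotype contrast, against 1 in each. Library weights called 354 and 12, a pseudocount of 0.1 called 2 untreated, and a filter of any FPKM above 0 called 1 interaction. Leaving out 1 library gave 1 to 6 calls untreated (6 without treated SMA library 2, 2 without untreated control library 2), 1 to 205 treated (205 without treated SMA library 2, 5 without untreated control library 1) and 0 to 1 interactions (1 without untreated control library 2). Without both SMA libraries numbered 2, an alternative chosen after the data were seen, 144 genes were called untreated and 237 treated. Olig1 then differed by 2.67 and 3.28 and Olig2 by 2.19 and 2.21 on the log2 scale. Without treated SMA library 2 alone, 6 precursor genes rose among the 205 (among them Ednrb by 2.10, Tmem100 by 1.39, Ptprz1 by 1.33, Sox5 by 1.07 and Nfia by 1.02), as did Ptch1 by 1.58, Gli1 by 1.11 and Nkx6-2 by 1.43. The count of 4 genes without overlap in both treatments was 4 with no scaling, 5 without treated control library 2, 6 without treated SMA library 2 and 6 without both SMA libraries numbered 2, and 4 without each of the other 10 libraries in turn.

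The small treatment differences of the 7 genes changed sign under some settings, and none was called under any. With library weights Olig1 gave 0.043 in control and 0.38 in SMA cultures, Olig2 0.35 and 0.17, and Sox8 0.030 in SMA cultures. Without both SMA libraries numbered 2, Olig1 gave 0.25 and Olig2 0.012 in SMA cultures, and the Olig2 interaction was 0.020. Leaving out 1 library, the difference ranged in SMA cultures from -0.56 to 0.76 for Olig1, -0.57 to 0.43 for Olig2 and -0.36 to 0.11 for Sox8. In control cultures it ranged from -0.25 to 0.15 for Olig2, -0.15 to 0.11 for Nkx2-2 and -0.28 to 0.060 for Cspg4. Interactions ranged from -0.20 to 1.11 for Olig1, -0.56 to 0.43 for Olig2 and -0.14 to 0.32 for Sox8. The cause was not tested. Levels under 1 FPKM, such as those of Sox10 and Pdgfra, have wide intervals at this depth.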
